A study of Mus musculus with 14 samples.

Results

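Primary retinal pigment epithelium (P-RPE, n = 2 libraries) was compared with mouse embryonic fibroblasts (MEF, n = 3 libraries) by sequencing of total RNA. These 5 libraries, out of 14 from mouse, are the target and the starting point of a study that used chemicals to turn fibroblasts into pigment epithelium, so the comparison asks how far apart the cells at its ends lie. All genes passing a count filter were tested from the raw counts, 20562 of 55291 gene symbols. Per the labels, both groups are C57BL/6J. P-RPE is labelled as RPE cells with no treatment. MEF cells came from E13.5 embryos (E for embryonic day), and their treatment label is the M7 reprogramming medium. Cell type and labelled treatment cannot be told apart in any difference below. The labels give no sex, and Xist and Y-linked transcripts, given at the end, differed between the groups. Sex can therefore not be told apart from cell type either. The labels do not say how the epithelium was isolated, whether it was cultured, how many animals were pooled, or whether a group's libraries came from separate animals or cultures. Each p measures a spread between libraries that was pooled over the 5 groups of the 14 mouse libraries. As separate animals or cultures are not stated, how much of the spread within P-RPE and MEF is technical is unknown. Some markers of other cell types differed many-fold between the P-RPE libraries, as given below. P-RPE carries the same E13.5 tissue label as MEF, and no other age is given for it. Whether the groups match in age was not tested, and adult globin and rod transcripts in P-RPE are given below.

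The retinal pigment epithelium is a single layer of pigmented cells between the photoreceptors and the choroid, the vascular bed behind the retina. It turns spent retinoid back into the form that opsins need, takes up shed photoreceptor outer segments, moves ions, water and fuel between blood and retina, and holds melanin that absorbs stray light. Embryonic fibroblasts are dividing mesenchymal cells that secrete and pull on a collagen-rich matrix and keep the positional code of the trunk and limbs in their Hox genes.

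Total counts were 40226426 and 41390196 in P-RPE and 35507532 to 40156109 in MEF. Levels below are counts-per-million (CPM) on scaled library sizes, and 1 count was worth 0.0268 to 0.0305 CPM. Values are given for P-RPE 1 and 2 in that order and then for MEF 1, 2 and 3. The spread within groups, as a biological coefficient of variation, was 0.218 in P-RPE and 0.0426 in MEF, and the test pooled it over the 5 groups of the mouse table. Between the P-RPE libraries, 96.2% of 14578 genes at 1 CPM or more lay within 2-fold. The 10 genes with most counts took 14.3% and 13.1% of the counts in P-RPE, and 6.33% to 6.42% in MEF. In tissue of mixed cells, fewer cells of a type and less RNA per cell cannot be told apart. Without a stated strand setting, a gene and a neighbour that overlaps its exons may share reads. Among the genes named below, the overlapped share of exon bases was 49.1% for Kcnj13, 63.5% for Trf, 64.5% for Igf2, 57.2% for Fosl1, 52.9% for Hoxb3, 34.6% for Ftl1, 34.4% for Ctsd and 25.6% for Rdh5.

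Markers of several cell types other than pigment epithelium were higher in P-RPE than in MEF, and some of them differed between the P-RPE libraries. Rod and cone markers rose in 16 of 16 genes, and their summed level was 1437 and 3397 CPM in P-RPE, against 8.60 to 9.79 CPM in MEF. Nrl, the factor that specifies rods, had 28.5 and 80.1 CPM in P-RPE, against 0 counts in every MEF library, at least 1887-fold higher. P-RPE 2 held more of these transcripts than P-RPE 1. Red cell markers rose in 6 of 7 tested genes, with summed levels of 975 and 1781 CPM in P-RPE, against 0.170 to 0.640 CPM in MEF. The adult beta-globin Hbb-bs had 482 and 835 CPM in P-RPE, against 0, 0 and 0.0567 CPM in MEF, while the embryonic beta-like globins Hbb-y and Hbb-bh1 had 10 and 0 counts in P-RPE, against none in MEF. Alpha- and beta-globin genes come in near-identical copies, so counts for a single copy are uncertain.

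Macrophage and microglia markers were higher in 16 of 16 genes, at a summed 2680.3 and 2867 CPM in P-RPE, against 241 to 249 CPM in MEF. Csf1r, the receptor for macrophage growth factor, had 693 and 675 CPM in P-RPE, against 9.38, 11.6 and 10.8 CPM in MEF. Class II antigen presentation genes were higher in 7 of 7, among them Cd74, the invariant chain, at 321 and 369.9 CPM in P-RPE, against 0.0609, 0.0553 and 0.227 CPM in MEF. For these leukocyte genes, the P-RPE libraries lay close together and far above MEF. Endothelial markers were higher in 14 of 14 genes, at a summed 1395 and 1717 CPM in P-RPE, against 102 to 116 CPM in MEF, and Plvap, which spans the pores of fenestrated capillaries such as those of the choroid, had 260.0 and 335 CPM in P-RPE, against 0.731, 0.691 and 0.255 CPM in MEF. Markers of retinal neurons were mixed, with 8 of 14 higher and 5 lower, and fewer lower without P-RPE 1. Of all genes tested, 39.3% were higher and 31.4% lower. Markers of Müller glia and astrocytes were higher in 10 of 10 genes, but this list shares Rlbp1, Clu and Glul with RPE. Gfap, an astrocyte filament, had 70.8 and 190.2 CPM in P-RPE, against 0.518, 0.636 and 0.369 CPM in MEF.

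Melanocyte and Schwann cell markers rose in 10 of 12 genes and fell in 2, with summed levels of 1699 and 761 CPM in P-RPE, against 139.9 to 163 CPM in MEF. Sox10, a factor of neural crest derived pigment and glial cells, had 334 and 344 CPM in P-RPE, against 15.4, 18.03 and 18.24 CPM in MEF. Mbp, the myelin basic protein of Schwann cells and oligodendrocytes, had 893 and 97.2 CPM in P-RPE, against 14.6, 18.4 and 17.6 CPM in MEF, and most of the gap between the sums of the P-RPE libraries lay in this gene. Oligodendrocyte markers, a list added after the values were seen, were higher in 8 of 8 genes, at a summed 814 and 343 CPM in P-RPE, against 15.7 to 16.3 CPM in MEF. Most of both P-RPE sums lay in the member Ermn, at 457 and 284 CPM in P-RPE, against 0 counts in every MEF library. Mobp, a myelin protein of oligodendrocytes, had 202 and 0.777 CPM in P-RPE, against 0, 0.0277 and 0 CPM in MEF. P-RPE 1 was the high library for the myelin genes Mbp and Mobp, while Sox10 was even. Genes of the non-pigmented ciliary epithelium, also added afterwards, rose in 3 of 5, with P-RPE 2 the high library. Optc, the vitreous proteoglycan opticin, had 0.727 and 60.3 CPM in P-RPE, against 2.68, 2.68 and 2.44 CPM in MEF. Its log2 change was 3.55, but -1.83 without P-RPE 2 (edgeR adjusted p = 0.00612), so its direction rests on P-RPE 2. Lymphocyte markers were higher in 7 of 7 tested genes but summed to only 51.9 and 46.0 CPM in P-RPE, against 0.511 to 0.670 CPM in MEF. Of the 16 lens genes, 7 reached the filter, of which 5 rose and 0 fell, at a summed 351 and 386 CPM in P-RPE, against 214 to 218 CPM in MEF. The 5 without a count in P-RPE included the gamma-crystallins Cryga, Crygb, Crygc and Crygd. The part these other cells play in the results below was not tested.

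**Figure D1:**
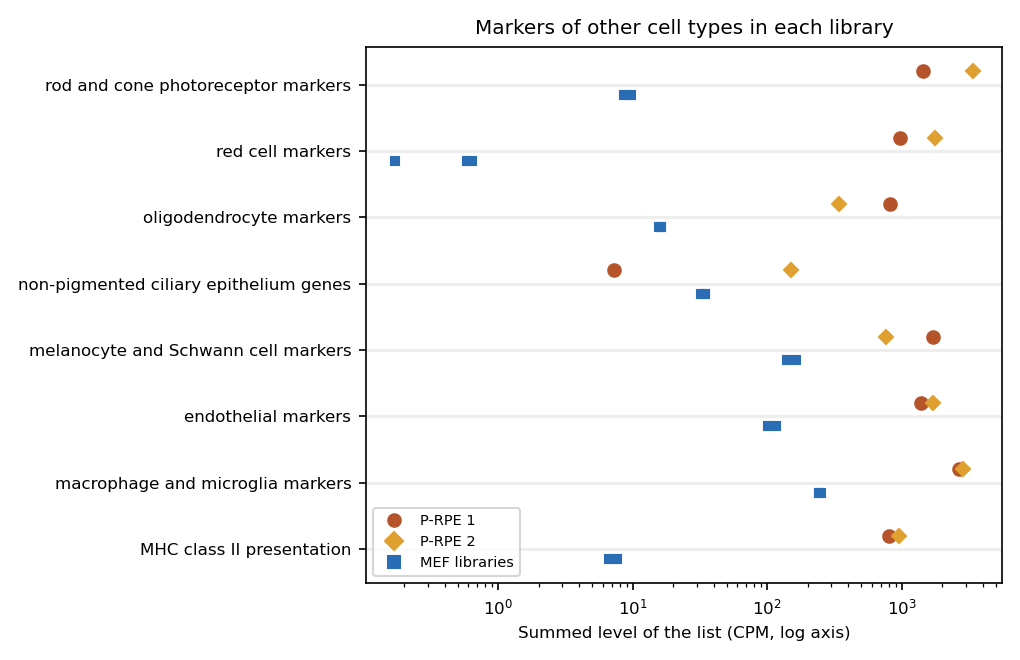
Summed level of 8 marker lists in each library, in CPM on a log axis; circles are P-RPE 1, diamonds P-RPE 2 and squares the MEF libraries. The P-RPE pair lies together for macrophage and class II genes, at 2680.3 and 2867 CPM for macrophage genes, and apart for rod and cone genes, at 1437 and 3397 CPM, and for ciliary epithelium genes, at 7.25 and 150.1 CPM.

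Across all genes, 14528 of 20562 (70.7%) passed the quasi-likelihood test of edgeR at a Benjamini-Hochberg adjusted p of 0.05. P-RPE was higher for 8079 (39.3%) and lower for 6449 (31.4%). By 2-fold or more, 6496 (31.6%) were higher and 4386 (21.3%) lower, and the median log2 change of all tested genes was 0.18. P-RPE and MEF libraries did not overlap for 82.5% of the tested genes. With most genes called, a share of called members near these values says little about a list, and a gene that passed the filter only through the group where it is high had to differ. Of the tested genes, 1029 had 0 counts in MEF and 673 had 0 counts in P-RPE. In a model of these 5 libraries alone, 9 genes given below as not passing did pass: Acadm, Eln, Fbn1, Gpnmb, Ifit2, Itgb5, Pdgfra, Pdgfrb and Serpinf1.

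Transcripts of secreted carriers and retinoid proteins took the largest shares of the P-RPE libraries. Ptgds, a prostaglandin synthase that also carries retinoids, took 2.39% and 2.18% of all counts in P-RPE and 2.25e-05%, 9.96e-06% and 2.61e-05% in MEF. Trf, the iron carrier transferrin, had 23026 and 22458 CPM in P-RPE, against 6.49, 6.69 and 6.58 CPM in MEF. Ttr, the thyroxine and retinol carrier transthyretin, and Rgr, a retinal isomerase of the opsin family, had 0 counts in MEF and stood at 24067 and 21040.4 CPM and 23345 and 21136 CPM in P-RPE. In MEF the largest shares went to Fn1, the matrix protein fibronectin, at 57.6 and 108 CPM in P-RPE, against 10630.2, 11614 and 10975 CPM in MEF, and to Thbs1, the matrix glycoprotein thrombospondin, at 999 and 931 CPM in P-RPE, against 9279.6, 9442 and 9499 CPM in MEF. The 2 groups shared none of their 5 genes with most counts.

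The steepest differences in the table were presence against absence. Among the 15 largest increases were Slc6a13, a GABA and taurine transporter (973 and 903 CPM in P-RPE, against 0 counts in every MEF library), Pla2g5, a secreted phospholipase (644 and 623 CPM in P-RPE, against 0 counts in every MEF library), and Pon1, a lipid-linked esterase better known from blood plasma (704 and 518 CPM in P-RPE, against 0 counts in every MEF library). These were at least 32606-fold higher, at least 22010.4-fold higher and at least 21227-fold higher. Slc7a10, a transporter of small neutral amino acids, had 296 and 267 CPM in P-RPE, against 0 counts in every MEF library, at least 9784-fold higher. Among the 15 largest decreases, 7 were Hox genes. Msln, the cell surface protein mesothelin, had 0 counts in either P-RPE library, against 146, 161 and 155 CPM in MEF, at least 3749.8-fold lower. Ereg, the growth factor epiregulin, had 0 counts in either P-RPE library, against 34.6, 29.0 and 30.1 CPM in MEF, at least 761-fold lower. Hmga2, a chromatin protein of embryonic proliferating cells, had 0 and 0.0536 CPM in P-RPE, against 1015, 1047 and 1008 CPM in MEF, a MEF over P-RPE ratio of 37395, with 10352 to 308790.0 as its exact 95% counting interval, and all of its P-RPE counts lay in P-RPE 2. The rule that picked these genes required that no library of one group reach the range of the other.

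**Figure D2:**
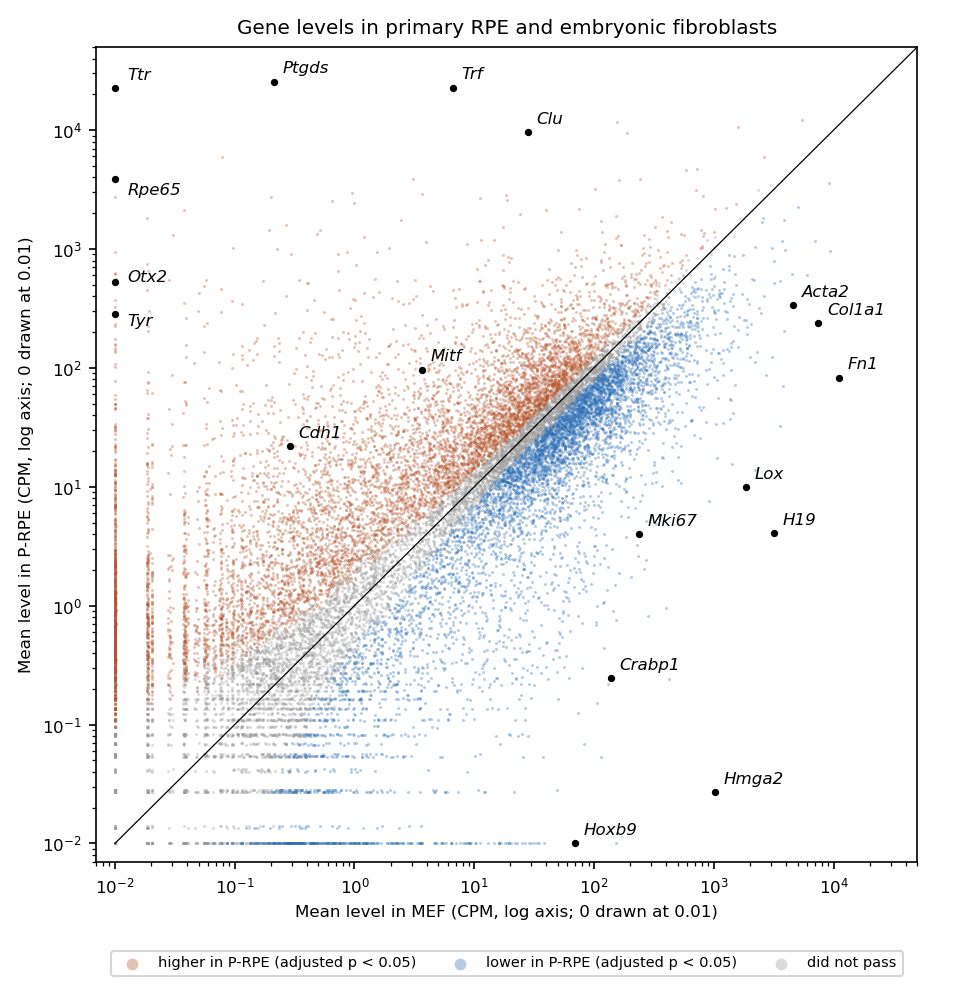
Mean level of each of the 20562 tested genes in MEF (x axis) and P-RPE (y axis), in CPM on log axes with 0 drawn at 0.01, coloured by call. Genes above the diagonal were higher in P-RPE. The column at the left edge holds the 1029 genes without a count in MEF, among them Ttr and Rpe65, and the row at the bottom the 673 without a count in P-RPE, among them Hoxb9.

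Genes of the retinoid cycle were high in P-RPE and absent or low in MEF. All 13 genes of the visual cycle and retinol handling list rose, with a median log2 change of 12.49. Retinol enters from the blood through Stra6, the receptor for its plasma carrier, which had 2783 and 2707 CPM in P-RPE, against 0.213, 0.111 and 0.284 CPM in MEF, a log2 change of 13.71 (SE 0.56). Both P-RPE libraries were far above every MEF library. Lrat then esterifies retinol, and it had 3206 and 2238 CPM in P-RPE, against 0 counts in every MEF library, at least 94582-fold higher. Rpe65, the isomerase that makes 11-cis retinol from the ester, had 4564 and 3231 CPM in P-RPE, against 0 counts in every MEF library, at least 135430.0-fold higher. The edgeR adjusted p was 2.92e-08 for Lrat and 3.54e-09 for Rpe65. Neither transcript was seen in any MEF library.

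Rlbp1, which carries 11-cis retinoids, had 6292 and 5529 CPM in P-RPE, against 0.122, 0 and 0.113 CPM in MEF, a log2 change of 16.17 (SE 0.46), or 15.58 without MEF 2. Rdh5, the 11-cis retinol dehydrogenase that completes the cycle, had 3010.3 and 2859 CPM in P-RPE, against 0.975, 1.08 and 0.794 CPM in MEF, a log2 change of 11.59 (SE 0.43). Rrh, the opsin-like peropsin of the apical microvilli, had 504 and 418 CPM in P-RPE, against 0.122, 0.111 and 0 CPM in MEF, a log2 change of 12.49 (SE 0.47). These genes were also without overlap between the groups. The 2 smallest changes in the list were those of Rdh11 and Rbp4. Rdh11, a retinol dehydrogenase of many cells, had 152 and 125 CPM in P-RPE, against 45.6, 41.2 and 42.8 CPM in MEF, a log2 change of 1.68 (SE 0.17). Rbp4, the plasma retinol carrier made chiefly by liver, had 2.01 and 2.04 CPM in P-RPE, against 0.670, 0.940 and 1.02 CPM in MEF, a log2 change of 1.20 (SE 0.36). Müller glia also make Rlbp1, and their markers are described above.

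Melanin genes rose almost as one. Of 17 genes, 16 rose and 0 fell, at a median log2 change of 10.29. Tyr, the tyrosinase that starts melanin synthesis, had 305 and 263 CPM in P-RPE, against 0 counts in every MEF library, at least 9868-fold higher. The related enzymes Dct and Tyrp1 had 1416 and 2249.9 CPM and 589.7 and 899 CPM in P-RPE, and 2 counts each over the MEF libraries, all in MEF 2. For Dct this gave a P-RPE over MEF ratio of 95992, with 26573 to 792643 as its exact 95% counting interval, and for Tyrp1 a P-RPE over MEF ratio of 38975, with 10789 to 321835 as its exact 95% counting interval. Pmel, the fibril protein on which melanin is laid down, had 649.8 and 1161 CPM in P-RPE, against 1.04, 0.664 and 0.482 CPM in MEF, a log2 change of 10.29 (SE 0.35). Each of these 4 genes was silent or nearly so in MEF. Oca2, a membrane protein of melanosomes, had 256 and 245 CPM in P-RPE, against 0, 0.0553 and 0 CPM in MEF. Tspan10, a tetraspanin of pigment cells, had 454 and 453 CPM in P-RPE, against 0, 0.0553 and 0 CPM in MEF. For Trpm1, a cation channel first found in melanocytes, the P-RPE libraries differed: 90.9 and 263 CPM in P-RPE, against 0.183, 0.111 and 0.170 CPM in MEF. Gpnmb, a glycoprotein of melanosomes and lysosomes, was the member that did not pass, with 958 and 1443 CPM in P-RPE, against 839, 930.1 and 849.8 CPM in MEF. Its groups did not overlap, but the log2 change of 0.46 had an adjusted p of 0.0702, and of 0.0169 without P-RPE 1 (edgeR). Melanocytes use the same genes, and of their own markers Kit had 21.9 and 23.8 CPM in P-RPE, against 1.04, 0.774 and 1.08 CPM in MEF beside the Sox10 values above.

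The bases before the starts of 4 of these genes are shown because they hold CATGTG, the core of the M-box through which MITF is known to act on pigment genes. Each run is the 250 bases upstream of the start in RefSeq on GRCm38.p6, 5′ to 3′ on the gene's strand, with CATGTG or its reverse complement CACATG in capitals. The windows are chr7:87493513-87493762 (minus strand) for Tyr, chr4:80833963-80834212 (plus) for Tyrp1, chr14:118052247-118052496 (minus) for Dct and chr11:120442381-120442630 (plus) for Tspan10.
Tyr: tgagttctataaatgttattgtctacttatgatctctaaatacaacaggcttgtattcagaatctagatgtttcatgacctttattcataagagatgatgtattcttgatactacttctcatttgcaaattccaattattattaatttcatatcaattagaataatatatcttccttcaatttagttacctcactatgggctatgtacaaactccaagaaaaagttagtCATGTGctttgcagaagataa
Tyrp1: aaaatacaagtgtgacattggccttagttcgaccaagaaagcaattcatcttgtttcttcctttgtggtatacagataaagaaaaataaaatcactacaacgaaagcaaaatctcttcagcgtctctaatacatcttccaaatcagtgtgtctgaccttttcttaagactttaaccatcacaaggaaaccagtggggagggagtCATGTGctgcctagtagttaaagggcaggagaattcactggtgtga
Dct: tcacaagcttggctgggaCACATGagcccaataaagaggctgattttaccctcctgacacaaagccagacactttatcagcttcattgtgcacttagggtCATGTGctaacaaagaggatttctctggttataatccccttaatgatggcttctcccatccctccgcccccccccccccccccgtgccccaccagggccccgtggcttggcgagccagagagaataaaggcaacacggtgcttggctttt
Tspan10: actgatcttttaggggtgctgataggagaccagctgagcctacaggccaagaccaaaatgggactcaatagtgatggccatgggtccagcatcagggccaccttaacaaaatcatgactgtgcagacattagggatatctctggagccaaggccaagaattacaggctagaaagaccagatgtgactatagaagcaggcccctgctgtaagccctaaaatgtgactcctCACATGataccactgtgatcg
The first base of the motif lies 21 bases before the start in Tyr, 46 in Tyrp1, 232 and 150 in Dct and 21 in Tspan10. On either strand, 8 of the 16 windows of pigmentation genes (50%) held CATGTG, which is one form of the E-box CANNTG, against 4025 of 32851 windows of all genes (12.3%). Windows were present for 12 of the 17 members, and 8 of these had the motif. The motif was chosen with the expression values known, and a match describes letters in the window, not binding.

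**Figure D3:**
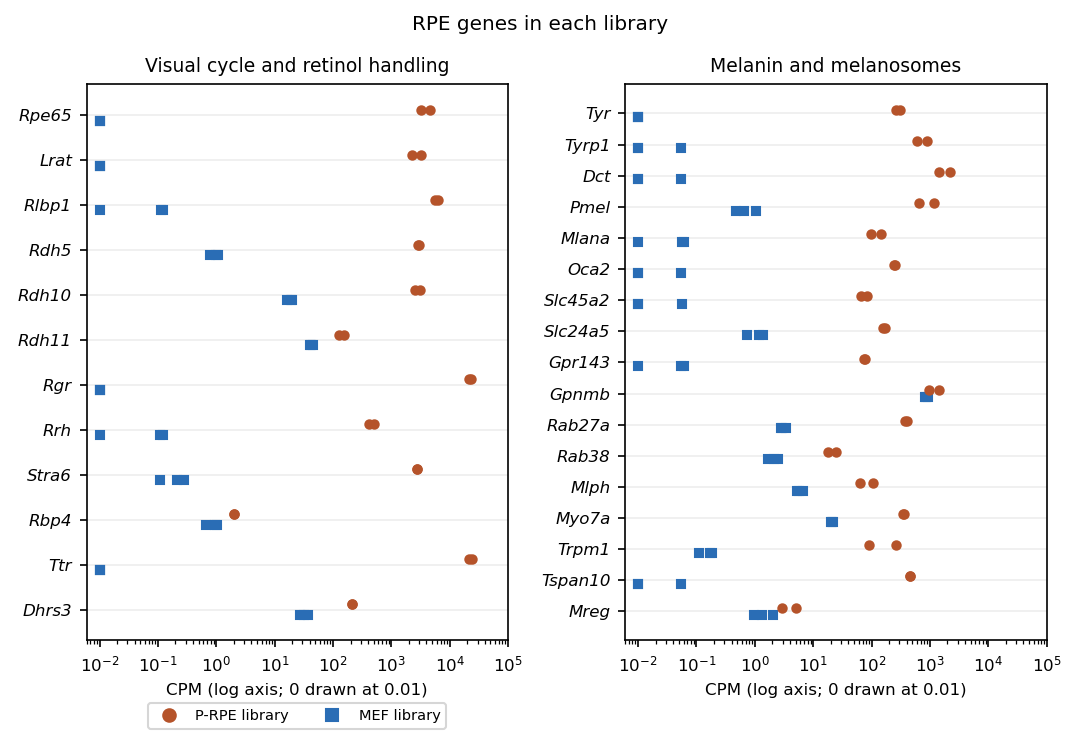
Level of 12 visual cycle genes (left) and each melanin gene (right) in every library, in CPM on a log axis with 0 drawn at 0.01; circles are P-RPE libraries and squares MEF libraries. The groups are apart for Rpe65, Lrat, Rgr, Ttr and Tyr, which had 0 counts in MEF, and close for Gpnmb, at 958 and 1443 CPM in P-RPE and 839 to 930.1 CPM in MEF.

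The transcription factors that keep pigment epithelium in its identity were higher, 9 of 10 tested, at a median log2 change of 5.26. Otx2, a homeodomain factor of RPE and photoreceptors, had 592 and 465 CPM in P-RPE, against 0 counts in every MEF library, at least 18362-fold higher. Mitf, the master regulator of pigment cells, had 103 and 90.6 CPM in P-RPE, against 3.81, 3.62 and 3.66 CPM in MEF, a log2 change of 4.71 (SE 0.25), with an edgeR adjusted p of 3.17e-10. MEF thus had Mitf but no Otx2. Sox9, which works with these factors on visual cycle genes, had 204 and 219 CPM in P-RPE, against 49.8, 54.5 and 51.5 CPM in MEF. Lhx2, an eye field factor retained in RPE, had 126 and 137 CPM in P-RPE, against 1.83, 2.54 and 2.55 CPM in MEF. Tfec, a relative of Mitf, did not pass, at 1.79 and 1.13 CPM in P-RPE, against 1.46, 0.940 and 1.65 CPM in MEF. Pax6, active in the optic vesicle and kept in ciliary epithelium and inner retina, passed but split the pair, with 6.58 and 59.6 CPM in P-RPE, against 0.700, 0.608 and 0.454 CPM in MEF. Crx, chiefly a photoreceptor factor, had 10.9 and 27.5 CPM in P-RPE, against 0, 0.0553 and 0 CPM in MEF. P-RPE 2, the library with more rod and ciliary transcripts, was the higher for both.

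The wider eye field list was mixed: of 12 genes, 6 rose and 3 fell, at a median log2 change of 1.26. Of all genes tested, 39.3% rose and 31.4% fell. Six3 had 135 and 128 CPM in P-RPE, against 0.122, 0.0553 and 0.113 CPM in MEF, a log2 change of 10.37 (SE 0.49). Six6, another eye field factor, had 0.616 and 3.70 CPM in P-RPE, against 0 counts in every MEF library. Six3 was even between the P-RPE libraries while Six6 was chiefly in P-RPE 2. Lhx9, found in limb and gonad mesenchyme as well as retina, had 0 and 0.107 CPM in P-RPE, against 25.4, 28.1 and 22.7 CPM in MEF, and all of its P-RPE counts lay in P-RPE 2.

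Ion, water and fuel transport marked P-RPE strongly: 18 of 19 members rose and 1 fell, at a median log2 change of 4.20. Kcnj13, the apical potassium channel Kir7.1, had 261 and 210.2 CPM in P-RPE, against 0 counts in every MEF library, at least 8179-fold higher. Slc4a5, a sodium bicarbonate cotransporter, had 2143 and 2097 CPM in P-RPE, against 0, 0 and 0.113 CPM in MEF. Car14, a membrane-bound carbonic anhydrase, had 1495 and 1388 CPM in P-RPE, against 0.670, 0.553 and 0.312 CPM in MEF. All of these were near absent from MEF. Best1, the basolateral chloride channel named for Best disease, rose too but stayed low, at 2.29 and 2.28 CPM in P-RPE, against 0.183, 0.332 and 0.170 CPM in MEF, a log2 change of 3.30 (SE 0.42). Lactate transporters did not all go the same way. Slc16a8 (MCT3), the basolateral carrier of RPE, had 2592 and 2504 CPM in P-RPE, against 0.731, 0.581 and 0.652 CPM in MEF, a log2 change of 11.92 (SE 0.37). Slc16a1 (MCT1), the apical one, had 1097 and 864 CPM in P-RPE, against 52.6, 48.1 and 50.4 CPM in MEF, a log2 change of 4.28 (SE 0.22). Slc16a3 (MCT4), the carrier of glycolytic cells, had 5.20 and 7.40 CPM in P-RPE, against 50.01, 56.9 and 49.8 CPM in MEF, a log2 change of -3.05 (SE 0.34). Their shared chaperone Bsg had 4872 and 4619.5 CPM in P-RPE, against 692, 755 and 717 CPM in MEF.

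Secreted factors rose in 9 of 12 genes (median log2 change 3.19). They fell in 2, or in 1 without MEF 1, MEF 2, MEF 3 or P-RPE 2. Vegfa, which maintains the choriocapillaris, had 854 and 785 CPM in P-RPE, against 73.1, 80.7 and 78.4 CPM in MEF. Timp3, a protease inhibitor of Bruch's membrane, had 4788 and 4388 CPM in P-RPE, against 593, 595 and 564 CPM in MEF. Enpp2, the enzyme autotaxin, had 4476 and 3241 CPM in P-RPE, against 3.05, 3.93 and 2.27 CPM in MEF. For all of these, both P-RPE libraries lay above MEF. Serpinf1, the anti-angiogenic factor PEDF and a common RPE marker, did not pass, with 83.7 and 117 CPM in P-RPE, against 128, 125 and 137 CPM in MEF; its P-RPE libraries lay below those of MEF. Efemp1, the matrix protein fibulin-3, fell, with 42.1 and 82.6 CPM in P-RPE, against 459.7, 507 and 477 CPM in MEF, a log2 change of -2.95 (SE 0.44).

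Of 13 genes of outer segment uptake, 6 were higher and 5 lower (median log2 change 0.41), where 39.3% and 31.4% of all genes tested were higher and lower. The 3 related receptor kinases differed. Mertk, needed by RPE to engulf outer segments, had 282 and 244 CPM in P-RPE, against 24.4, 22.8 and 24.17 CPM in MEF, a log2 change of 3.47 (SE 0.22). Tyro3 had 150.3 and 129.9 CPM in P-RPE, against 29.7, 32.08 and 31.8 CPM in MEF, a log2 change of 2.17 (SE 0.13). Axl had 145 and 192 CPM in P-RPE, against 1414, 1487 and 1469 CPM in MEF, a log2 change of -3.11 (SE 0.15). Mertk and Tyro3 thus rose and Axl fell. Of the ligands, Gas6 had 238 and 334 CPM in P-RPE, against 164, 170.4 and 170.2 CPM in MEF and rose, a call lost without P-RPE 2 (edgeR adjusted p = 0.0936). Pros1 had 34.2 and 39.7 CPM in P-RPE, against 68.2, 66.6 and 66.2 CPM in MEF and fell. Mfge8, the bridge to the integrin of alpha-v and beta-5 chains, fell at 139 and 209 CPM in P-RPE, against 570.2, 616 and 601 CPM in MEF. Both bridges that fell were lower in each P-RPE library than in any MEF library. The integrin chains Itgav and Itgb5 did not pass, at 612 and 435 CPM in P-RPE, against 450.0, 422 and 457 CPM in MEF for Itgav and 371 and 415 CPM in P-RPE, against 294, 302 and 289 CPM in MEF for Itgb5. Tulp1, a photoreceptor protein that can also bind Mertk, had 22.1 and 70.7 CPM in P-RPE, against 0.487, 0.332 and 0.284 CPM in MEF, higher in P-RPE 2 like the rod genes.

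Epithelial junction and keratin genes rose in 18 of 24 tested members and fell in 4, at a median log2 change of 3.77, or 3.34 with genes lacking a count in a group set at their bound. Krt18, a keratin of simple epithelia, had 829 and 737 CPM in P-RPE, against 19.1, 19.9 and 19.1 CPM in MEF, a log2 change of 5.34 (SE 0.25). Cldn1, a tight junction claudin, had 456 and 349 CPM in P-RPE, against 3.47, 3.32 and 3.01 CPM in MEF, a log2 change of 6.94 (SE 0.40). Ocln, the tight junction protein occludin, had 18.5 and 14.9 CPM in P-RPE, against 0.122, 0.0553 and 0.113 CPM in MEF, a log2 change of 7.39 (SE 0.50). Each was low in all MEF libraries. Cldn19, the claudin prominent in human RPE, was uneven, with 2.27 and 13.53 CPM in P-RPE, against 0.0609, 0.304 and 0.170 CPM in MEF. Epcam, an adhesion molecule of most other epithelia, did not pass, at 0.112 and 0.268 CPM in P-RPE, against 0.122, 0.277 and 0.113 CPM in MEF, and Esrp1, an epithelial splicing factor, was too low to test. The scaffold Tjp1 (ZO-1) fell, with 98.9 and 103 CPM in P-RPE, against 182, 176 and 179 CPM in MEF, as did plakoglobin, Jup, with 74.8 and 97.2 CPM in P-RPE, against 166, 182 and 169.5 CPM in MEF.

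Of 17 classical cadherins tested, 8 were higher and 7 lower (median log2 change 0.04). Over all genes tested the shares were 39.3% higher and 31.4% lower. Cdh1, E-cadherin, had 19.2 and 24.9 CPM in P-RPE, against 0.305, 0.166 and 0.397 CPM in MEF, a log2 change of 6.24 (SE 0.39). Cdh3, P-cadherin, had 314 and 318 CPM in P-RPE, against 60.5, 58.0 and 60.5 CPM in MEF, a log2 change of 2.41 (SE 0.24). Cdh2, N-cadherin, had 35.2 and 33.0 CPM in P-RPE, against 305, 323 and 313 CPM in MEF, a log2 change of -3.20 (SE 0.15). Cdh11, a mesenchymal cadherin, had 101 and 113 CPM in P-RPE, against 321, 315 and 310.3 CPM in MEF. P-RPE was therefore higher for E- and P-cadherin and lower for N-cadherin, without overlap between libraries. Cdh5, the cadherin of endothelium, had 72.8 and 94.8 CPM in P-RPE, against 0.670, 0.332 and 0.170 CPM in MEF, beside the endothelial markers above.

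Complement genes rose in 14 of 16 members and fell in 2 (median log2 change 3.60). Among the regulators, Clu, clusterin, had 9904 and 9187 CPM in P-RPE, against 27.3, 30.5 and 26.7 CPM in MEF, a log2 change of 8.40 (SE 0.19). C4b, a component, had 160.0 and 202 CPM in P-RPE, against 0.670, 0.470 and 0.794 CPM in MEF, a log2 change of 8.13 (SE 0.24). The members that fell were Cd55, a membrane regulator, with 1.90 and 1.61 CPM in P-RPE, against 27.2, 26.0 and 28.7 CPM in MEF, and Masp1, a lectin pathway protease, with 4.95 and 5.25 CPM in P-RPE, against 266, 279.9 and 267 CPM in MEF. Macrophage markers, which rise with these genes, are given above.

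Among iron handling genes, 7 of 12 tested members were higher and 4 lower (median log2 change 1.20). All tested genes gave 39.3% higher and 31.4% lower. The export oxidases Cp and Heph had 64.2 and 96.3 CPM and 111 and 105 CPM in P-RPE, against 7.13, 6.58 and 8.96 CPM and 10.7, 6.53 and 9.90 CPM in MEF. Fth1, ferritin heavy chain, had 2816 and 2811 CPM in P-RPE, against 786, 842 and 792 CPM in MEF, a log2 change of 1.80 (SE 0.17). Ftl1, its light chain, had 664 and 703 CPM in P-RPE, against 1159, 1237 and 1197 CPM in MEF, a log2 change of -0.81 (SE 0.14). Tfrc, the transferrin receptor, had 70.1 and 53.01 CPM in P-RPE, against 147, 153 and 148 CPM in MEF, a log2 change of -1.28 (SE 0.27). Heavy and light ferritin thus went opposite ways, and the receptor was lower while its ligand Trf was higher.

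Antioxidant genes rose in 14 of 18 and fell in 2 (median log2 change 1.54). Mt1, a metallothionein, had 1794 and 1629.9 CPM in P-RPE, against 109, 129.9 and 107 CPM in MEF, and Mt3 had 431 and 432 CPM in P-RPE, against 2.07, 1.11 and 1.59 CPM in MEF. Cat, catalase, had 634 and 533 CPM in P-RPE, against 80.6, 79.3 and 80.4 CPM in MEF, a log2 change of 2.86 (SE 0.15). Gpx4, which protects lipids from peroxidation, had 1919 and 1816 CPM in P-RPE, against 352, 387 and 368 CPM in MEF, a log2 change of 2.34 (SE 0.17). Txnrd1 and Srxn1, targets of the stress factor NRF2, were the members that fell, with log2 changes of -2.22 and -1.19. Lysosomal genes were closer to the background: 12 of 25 rose and 5 fell (3 without P-RPE 2), at a median log2 change of 0.27. Ctsd, the protease that digests opsin, had 3196 and 3122 CPM in P-RPE, against 671, 750.4 and 722 CPM in MEF, and Psap, the precursor of sphingolipid activators, had 10774 and 10465 CPM in P-RPE, against 1519, 1686 and 1585 CPM in MEF. Lamp1, a membrane protein of all lysosomes, fell, with 404 and 409 CPM in P-RPE, against 968, 1015 and 991 CPM in MEF.

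Lipid handling genes rose in 12 of 17 members (median log2 change 2.05). They fell in 2, or in 5 in a model of these 5 libraries alone. Apoe had 11646 and 11882 CPM in P-RPE, against 153, 162 and 154 CPM in MEF, a log2 change of 6.23 (SE 0.18). Abca4, a retinoid flippase of photoreceptors that RPE also expresses, had 1042 and 1014 CPM in P-RPE, against 1.55, 2.10 and 2.21 CPM in MEF, a log2 change of 9.03 (SE 0.34). The lipoprotein receptors Vldlr and Lrp2 rose, with log2 changes of 2.97 and 2.49.

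Genes that burn fatty acids and make ketone bodies were mostly higher: 14 of 15 members rose and 0 fell (median log2 change 1.19). Cpt1a, the gate for fatty acids into mitochondria, had 379 and 385 CPM in P-RPE, against 110.3, 119.9 and 111 CPM in MEF, a log2 change of 1.75 (SE 0.19). The regulators Ppara and Ppargc1a had 8.31 and 9.49 CPM and 46.0 and 34.0 CPM in P-RPE, against 0.365, 0.526 and 0.170 CPM and 2.38, 0.996 and 1.76 CPM in MEF. Acadm, a dehydrogenase for medium chains, did not pass, at 62.6 and 62.7 CPM in P-RPE, against 50.8, 54.3 and 49.2 CPM in MEF.

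Glycolysis showed no common direction, with 9 of 19 genes higher, 9 lower and a median log2 change of -0.08. Over all genes tested, 39.3% were higher and 31.4% lower. Related forms differed in direction or size of change. Slc2a1 and Hk1 were more abundant than Slc2a3 and Hk2 in both groups. Of the pairs given here, only Ldha and Ldhb had a different leading form in each group. Glucose transporter Slc2a1 (GLUT1), which feeds the retina across the RPE, had 1845 and 1924 CPM in P-RPE, against 152, 158 and 151 CPM in MEF, a log2 change of 3.62 (SE 0.19), while Slc2a3 (GLUT3) had 4.90 and 8.23 CPM in P-RPE, against 23.8, 27.7 and 24.4 CPM in MEF, a log2 change of -1.94 (SE 0.22). Ldhb, the subunit that favours lactate use, had 745 and 771 CPM in P-RPE, against 62.0, 64.1 and 67.1 CPM in MEF, a log2 change of 3.56 (SE 0.15). Ldha, the subunit that favours lactate production, had 200.1 and 249 CPM in P-RPE, against 1411, 1506 and 1471 CPM in MEF, a log2 change of -2.70 (SE 0.27). Ldhb was thus higher in P-RPE and Ldha in MEF. Hk2, the inducible hexokinase, had 19.8 and 38.19 CPM in P-RPE, against 101, 113 and 104 CPM in MEF, and Hk1, the housekeeping one, had 326 and 363 CPM in P-RPE, against 216, 245 and 227 CPM in MEF. Pkm, the last enzyme of the pathway, fell with 1067 and 1287 CPM in P-RPE, against 3678, 3799 and 3689.7 CPM in MEF.

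Nuclear genes of the respiratory chain changed little, with a median log2 change of 0.13. Of 24, 10 rose, 3 fell and 11 did not pass, where 39.3% of all genes tested rose and 31.4% fell. Without the count filter, 4 rose. Their summed level was 5311 and 5533 CPM in P-RPE, against 4835 to 5082 CPM in MEF. Mitochondrially encoded transcripts took 2.83% and 1.91% of counts in P-RPE and 1.27% to 1.39% in MEF. The catalytic subunit mt-Co1 had 14407 and 10046 CPM in P-RPE, against 5577, 5391 and 5323 CPM in MEF, and the P-RPE libraries were apart. Some mitochondrial genes have nuclear copies, and mt-Co2, mt-Co3 and mt-Atp6 were under 10 CPM in every library, so values for this genome are uncertain.

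In the TGF-beta and BMP families, 9 of 21 ligands and antagonists were higher and 12 lower (median log2 change -1.22). Of all genes tested, 39.3% were higher and 31.4% lower. The ligands Bmp2, Bmp4, Bmp6 and Bmp7 were on the P-RPE side. Bmp4, which acts in RPE specification, had 448 and 426 CPM in P-RPE, against 90.0, 97.5 and 84.2 CPM in MEF, a log2 change of 2.27 (SE 0.15). Bmp7 had 202 and 200.3 CPM in P-RPE, against 9.87, 9.60 and 9.08 CPM in MEF, a log2 change of 4.402 (SE 0.16). Bmp2 had 90.1 and 108 CPM in P-RPE, against 7.98, 7.97 and 7.49 CPM in MEF, and Bmp6 had 247 and 225 CPM in P-RPE, against 10.4, 9.49 and 8.99 CPM in MEF. The antagonist Nog rose alongside, with 166 and 188 CPM in P-RPE, against 12.4, 15.7 and 13.2 CPM in MEF. An activin subunit and 2 antagonists were on the MEF side. Inhba, the activin A subunit, had 1.06 and 0.858 CPM in P-RPE, against 399, 399.6 and 399 CPM in MEF, a log2 change of -8.70 (SE 0.49). Grem1, a BMP antagonist of limb mesenchyme, had 0.0560 and 0.429 CPM in P-RPE, against 429, 406 and 421 CPM in MEF, a log2 change of -10.72 (SE 0.70). Fst, which binds activin, had 1.71 and 1.26 CPM in P-RPE, against 155, 149.9 and 147 CPM in MEF, a log2 change of -6.66 (SE 0.63). Each was above 100 CPM in every MEF library and under 2 CPM in P-RPE. Without P-RPE 2 the log2 change of Grem1 was -12.78, and without P-RPE 1 it was -9.92. The isoforms Tgfb1, Tgfb2 and Tgfb3 all fell, with log2 changes of -0.79, -1.22 and -1.81. The call of Tgfb1 was lost without P-RPE 1 (edgeR adjusted p = 0.0931) and that of Tgfb2 in a model of these 5 libraries alone (adjusted p = 0.0744), while its log2 change was -2.18 without P-RPE 2.

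Of 22 Wnt ligands and secreted Wnt antagonists tested, 6 were higher and 7 lower, where 39.3% of all genes tested were higher and 31.4% lower. The antagonists Sfrp5, Sfrp1 and Dkk3 rose: Sfrp5 had 176 and 176 CPM in P-RPE, against 0, 0 and 0.0284 CPM in MEF, and Sfrp1 had 435 and 355 CPM in P-RPE, against 76.9, 68.7 and 70.7 CPM in MEF. The ligands Wnt5a, Wnt10b and Wnt7a fell: Wnt5a had 25.4 and 27.8 CPM in P-RPE, against 131, 133 and 131 CPM in MEF, and Wnt7a had 0 counts in either P-RPE library, against 4.08, 3.71 and 2.84 CPM in MEF. In retinoic acid signalling, 8 of 16 members rose and 4 fell, beside the same shares over all genes. Crabp1, which binds retinoic acid in mesenchyme and neural crest, had 0.168 and 0.322 CPM in P-RPE, against 139, 137 and 140.3 CPM in MEF, a log2 change of -9.12 (SE 0.54). Aldh1a2, a synthetic enzyme, had 54.1 and 64.1 CPM in P-RPE, against 6.33, 6.67 and 5.79 CPM in MEF, while Aldh1a1 did not pass, at 30.2 and 57.9 CPM in P-RPE, against 53.4, 53.02 and 51.6 CPM in MEF. Without P-RPE 2, Aldh1a1 passed as lower (log2 change -0.80, edgeR adjusted p = 0.0191), and without P-RPE 1 its log2 change was 0.14.

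Circadian genes were higher in 14 of 17 members (median log2 change 2.24). They were lower in 2, or in 1 without MEF 2 or P-RPE 2. Dbp, an output factor of the clock, had 305 and 347 CPM in P-RPE, against 6.61, 7.36 and 7.26 CPM in MEF, a log2 change of 5.52 (SE 0.18). Hlf, of the same family, had 127 and 122 CPM in P-RPE, against 0.731, 0.774 and 0.454 CPM in MEF, a log2 change of 7.57 (SE 0.32). Per2, a repressor in the core loop, had 95.2 and 116 CPM in P-RPE, against 5.39, 5.64 and 5.45 CPM in MEF, a log2 change of 4.26 (SE 0.17). Arntl, the activator also called Bmal1, went the other way, with 9.93 and 11.98 CPM in P-RPE, against 32.5, 31.6 and 28.7 CPM in MEF, a log2 change of -1.50 (SE 0.14). The labels give no time of day. The E-box CACGTG, the site known for the clock activators, lay within 250 bases before the start in 6 of 19 windows of these genes (31.6%), counting either strand, against 6.02% of all windows.

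Immediate early genes, which also respond to handling of tissue, were higher in 14 of 15 members. Fos had 643 and 1136 CPM in P-RPE, against 18.27, 17.8 and 15.7 CPM in MEF, a log2 change of 5.69 (SE 0.29), and Egr1 had 1073 and 1564 CPM in P-RPE, against 267, 278 and 237 CPM in MEF, a log2 change of 2.34 (SE 0.25). Both were highest in P-RPE 2. Fosl1, a Fos relative induced by growth factors, was the 1 that fell, with 0.392 and 0.697 CPM in P-RPE, against 31.0, 32.28 and 31.5 CPM in MEF. Interferon response and class I genes rose in 18 of 19 members and fell in 0 (median log2 change 4.14). Ifit3 had 109.8 and 174 CPM in P-RPE, against 2.59, 3.07 and 3.69 CPM in MEF, and the class I heavy chain H2-K1 had 425 and 496 CPM in P-RPE, against 25.0, 29.1 and 24.08 CPM in MEF, a log2 change of 4.14 (SE 0.18). B2m, the class I light chain, differed less, with 542 and 499 CPM in P-RPE, against 311, 322 and 301 CPM in MEF. Ifit2 did not pass, at 15.3 and 15.6 CPM in P-RPE, against 21.8, 20.6 and 20.7 CPM in MEF. Leukocyte markers rise beside these genes, as given above.

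**Figure D4:**
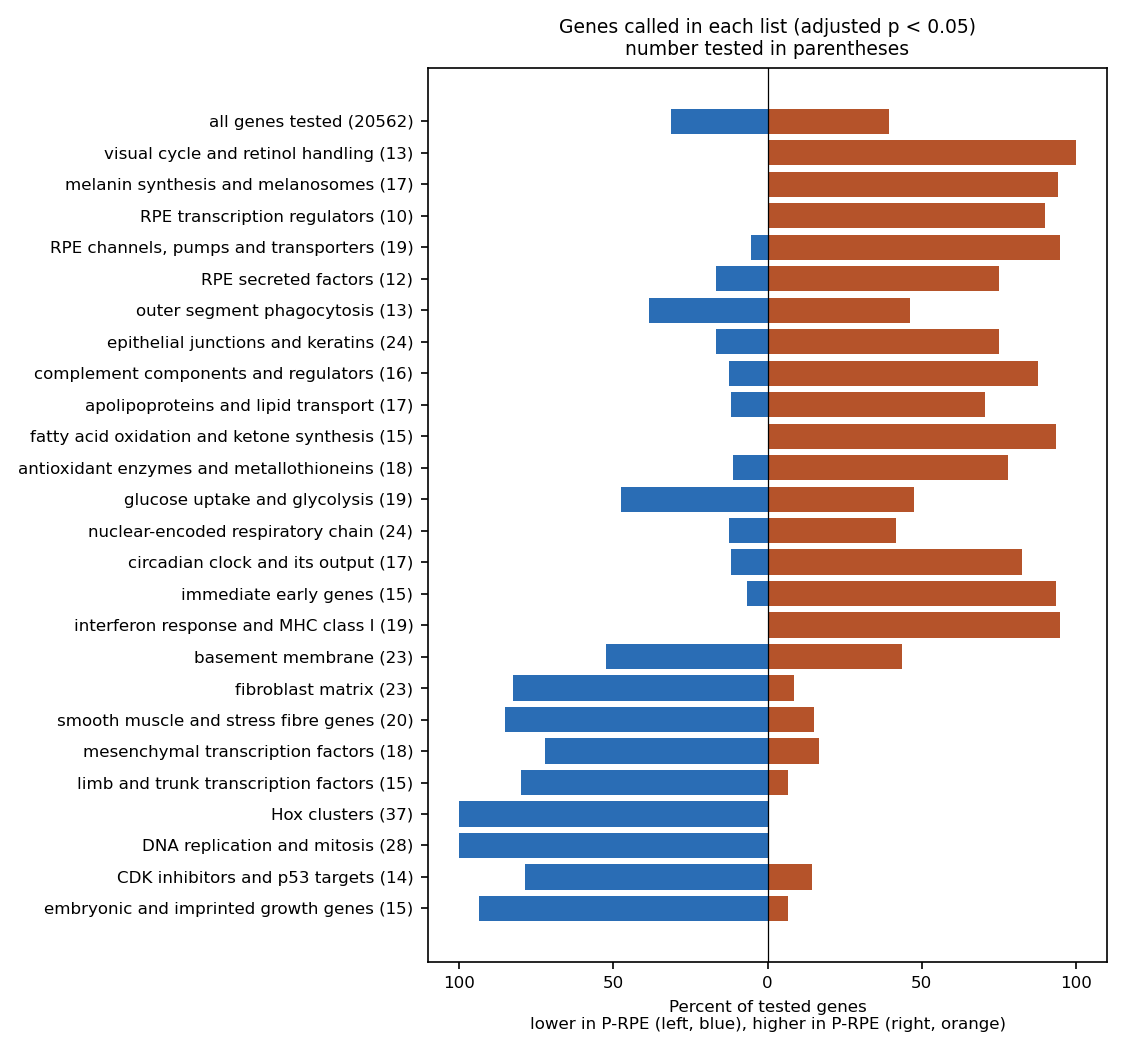
Percent of tested members of 25 gene lists that were higher (right, orange) or lower (left, blue) in P-RPE than in MEF at an adjusted p under 0.05, with the number tested in parentheses and all 20562 genes in the top row. Visual cycle genes lie wholly to the right, Hox and cell cycle genes wholly to the left, and glycolysis, at 9 higher and 9 lower, on both sides.

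Matrix of the connective tissue type was lower in P-RPE: 19 of 23 members fell, 2 rose, and the median log2 change was -3.05. The list summed to 4267 and 4988 CPM in P-RPE, against 50144 to 52423 CPM in MEF. Col1a1, a chain of type I collagen, had 199 and 276 CPM in P-RPE, against 7566, 7659 and 7218 CPM in MEF, a log2 change of -4.98 (SE 0.54). Lox, which cross-links collagen, had 8.90 and 10.99 CPM in P-RPE, against 1798, 1973 and 1844 CPM in MEF, a log2 change of -7.56 (SE 0.21). Tnc, tenascin of growing and healing tissue, had 11.1 and 16.7 CPM in P-RPE, against 2150.0, 2231 and 2243 CPM in MEF, a log2 change of -7.31 (SE 0.69). For each, even the higher P-RPE library was well under the lowest MEF library. The exceptions were small leucine-rich proteoglycans: Dcn, decorin, had 459 and 543 CPM in P-RPE, against 39.5, 37.8 and 32.9 CPM in MEF, a log2 change of 3.77 (SE 0.40), and Lum, lumican, had 167 and 153 CPM in P-RPE, against 2.13, 1.94 and 1.82 CPM in MEF, a log2 change of 6.35 (SE 0.49). Fbn1 and Eln, of elastic fibres, did not pass, at 397 and 401 CPM in P-RPE, against 679.8, 660.4 and 684 CPM in MEF for Fbn1.

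Basement membrane genes went both ways, 10 higher and 12 lower of 23, beside 39.3% and 31.4% of all genes tested. The widespread type IV collagen chains Col4a1 and Col4a2 fell, with 125 and 161 CPM in P-RPE, against 1267, 1294 and 1279 CPM in MEF for Col4a1. Col4a3 and Col4a4, the chains of specialised membranes such as those of kidney glomeruli, rose. Col4a3 had 388 and 313 CPM in P-RPE, against 2.92, 2.79 and 2.87 CPM in MEF, a log2 change of 6.94 (SE 0.27). Col4a4 had 463 and 418 CPM in P-RPE, against 4.60, 4.56 and 4.31 CPM in MEF, a log2 change of 6.62 (SE 0.28). The chains of the 2 kinds thus went opposite ways. Col8a2, a short-chain collagen of Descemet's and Bruch's membranes, had 2863 and 2936 CPM in P-RPE, against 3.90, 3.79 and 3.38 CPM in MEF, a log2 change of 9.62 (SE 0.40). Col18a1, the source of endostatin, had 853 and 1035 CPM in P-RPE, against 112, 130.4 and 118 CPM in MEF.

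Stress fibre and smooth muscle genes were lower, 17 of 20, at a median log2 change of -3.52. Acta2, smooth muscle actin, had 319 and 358 CPM in P-RPE, against 4465, 4721 and 4589 CPM in MEF, a log2 change of -3.76 (SE 0.24). Myh9, the non-muscle myosin of stress fibres, had 297 and 354 CPM in P-RPE, against 4317, 4605 and 4483 CPM in MEF, a log2 change of -3.78 (SE 0.18). Tpm1, a tropomyosin, had 80.4 and 93.4 CPM in P-RPE, against 2706, 2727 and 2688 CPM in MEF, a log2 change of -4.96 (SE 0.13). The 3 that rose were Mylk, Myh11 and Cnn3, and Myh11, the myosin of vascular smooth muscle, had 118 and 150.1 CPM in P-RPE, against 25.8, 23.9 and 25.9 CPM in MEF. Pericyte markers were higher in 7 of 10 genes and lower in 2 (1 without P-RPE 1), at a summed 1097 and 1163 CPM in P-RPE, against 845 to 869 CPM in MEF, and their part in these 3 was not tested. Targets of YAP and TGF-beta fell in 8 of 12 members and rose in 2. Ankrd1, a YAP target, had 0 and 0.107 CPM in P-RPE, against 109, 117 and 118 CPM in MEF, with 4 counts in P-RPE 2 and none in P-RPE 1.

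Mesenchymal transcription factors fell in 13 of 18 members and rose in 3 (median log2 change -1.86). Twist1 had 9.46 and 7.32 CPM in P-RPE, against 63.2, 55.8 and 56.6 CPM in MEF, a log2 change of -2.80 (SE 0.30). Prrx1, a factor of limb and craniofacial mesenchyme, had 8.67 and 11.6 CPM in P-RPE, against 377, 355 and 368 CPM in MEF, a log2 change of -5.17 (SE 0.24). Snai2, a repressor of E-cadherin, had 2.18 and 0.804 CPM in P-RPE, against 51.7, 51.8 and 46.2 CPM in MEF, a log2 change of -5.07 (SE 0.36), or -5.95 without P-RPE 1. Their P-RPE and MEF libraries were apart. Zeb2, which also represses E-cadherin, did not pass, at 74.1 and 71.7 CPM in P-RPE, against 75.5, 78.6 and 77.8 CPM in MEF. Foxf2, a factor of fibroblasts and pericytes, rose, with 33.1 and 41.1 CPM in P-RPE, against 6.58, 5.95 and 6.81 CPM in MEF. Limb and trunk factors fell in 12 of 15 (median log2 change -3.55). En1, a factor of ventral limb ectoderm and of a dermal fibroblast lineage of the trunk, had 0 counts in either P-RPE library, against 14.2, 16.2 and 17.8 CPM in MEF, at least 391-fold lower. Tbx15, of limb and trunk mesenchyme, had 1.96 and 1.47 CPM in P-RPE, against 60.7, 61.9 and 63.3 CPM in MEF, a log2 change of -5.17 (SE 0.36). Alx4, a cranial and limb mesenchyme factor, was the exception, higher at 33.7 and 32.32 CPM in P-RPE, against 8.80, 10.1 and 9.25 CPM in MEF.

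The Hox genes, which record position along the body axis, separated the groups at every member tested. Of the 39 genes of the 4 clusters, 37 were tested and all 37 of these fell, while Hoxb1 and Hoxd1 were too low. In P-RPE 34 of the 39 had 0 counts in both libraries, and the whole family summed to 0.727 and 0.616 CPM in P-RPE, against 497 to 521 CPM in MEF. Since many members passed the filter only through MEF, their count of calls is a description. The median log2 change was -10.64, or -7.54 with genes lacking a count set at their bound. Hoxb9 had 0 counts in either P-RPE library, against 67.8, 71.6 and 67.6 CPM in MEF, at least 1680.2-fold lower. Hoxa5 had 0 counts in either P-RPE library, against 39.7, 39.3 and 35.5 CPM in MEF, at least 929-fold lower. Hoxc8 had 0 counts in either P-RPE library, against 34.7, 34.5 and 34.1 CPM in MEF, at least 839-fold lower. No library of P-RPE held a read of these 3. MEF held genes of each cluster, with Hoxd13 at 9.44, 8.63 and 9.08 CPM. Of the 5 Hox genes with any count in P-RPE, Hoxb4 alone had counts in both libraries, with 0.336 and 0.563 CPM in P-RPE, against 21.5, 16.8 and 17.0 CPM in MEF.

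**Figure D5:**
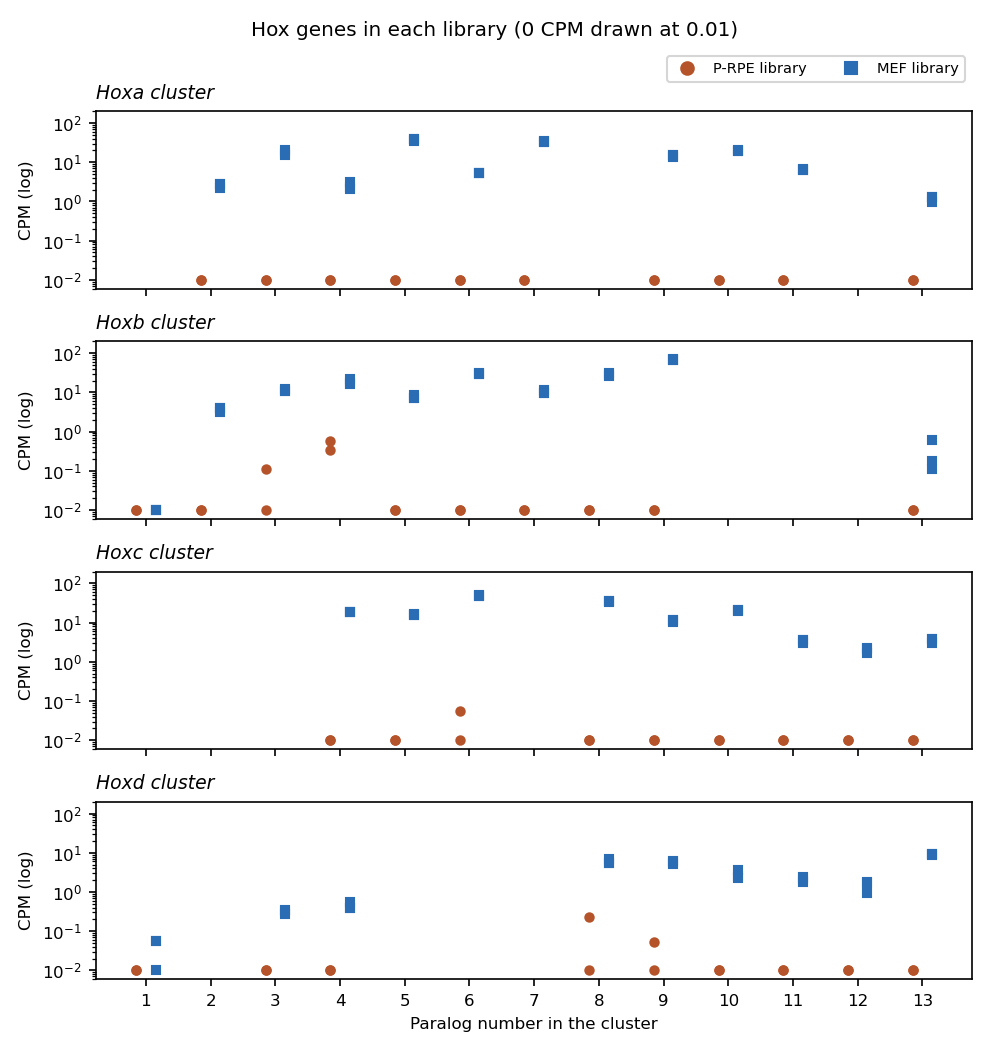
Level of 38 Hox genes in every library, in CPM on a log axis with 0 drawn at 0.01, by cluster (rows) and paralog number (x axis); circles are P-RPE libraries and squares MEF libraries. P-RPE circles lie on the floor at 0 except for Hoxb3, Hoxb4, Hoxc6, Hoxd8 and Hoxd9, each under 1 CPM.

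Genes of DNA replication and mitosis were lower in P-RPE without exception, 28 of 28, at a median log2 change of -4.22. Mki67, a marker of cycling cells, had 4.53 and 3.43 CPM in P-RPE, against 250.3, 220.4 and 244 CPM in MEF, a log2 change of -5.90 (SE 0.31), with an edgeR adjusted p of 6.85e-10. Ccnb1, the cyclin of mitotic entry, had 0.560 and 0.804 CPM in P-RPE, against 108, 101 and 104 CPM in MEF, a log2 change of -7.25 (SE 0.33). Bub1, a kinase of the spindle checkpoint, had 0.224 and 0.322 CPM in P-RPE, against 36.7, 35.8 and 35.4 CPM in MEF, a log2 change of -7.02 (SE 0.50). Rrm2, the ribonucleotide reductase subunit made in S phase, had 2.46 and 1.61 CPM in P-RPE, against 269.6, 254 and 258 CPM in MEF, a log2 change of -7.00 (SE 0.48). Ccnb1 and Bub1 were under 1 CPM in both P-RPE libraries. Pcna, used in repair as well as replication, differed least, with 88.1 and 85.2 CPM in P-RPE, against 162, 167 and 157 CPM in MEF and a log2 change of -0.90.

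The upstream bases of Ccnb1, Bub1 and Rrm2 are shown because they hold CCAAT, the box known to bind NF-Y in many genes of the G2 and M phases. They are printed as for the pigment genes, 250 bases from RefSeq on GRCm38.p6, with CCAAT or its reverse complement ATTGG in capitals. The windows are chr13:100786487-100786736 (minus strand) for Ccnb1, chr2:127831860-127832109 (minus) for Bub1 and chr12:24708004-24708253 (plus) for Rrm2.
Ccnb1: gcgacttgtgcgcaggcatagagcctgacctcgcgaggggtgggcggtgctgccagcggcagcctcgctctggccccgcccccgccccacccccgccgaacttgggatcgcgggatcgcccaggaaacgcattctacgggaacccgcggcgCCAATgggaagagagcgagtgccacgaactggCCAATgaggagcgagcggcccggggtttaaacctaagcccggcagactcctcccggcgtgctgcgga
Bub1: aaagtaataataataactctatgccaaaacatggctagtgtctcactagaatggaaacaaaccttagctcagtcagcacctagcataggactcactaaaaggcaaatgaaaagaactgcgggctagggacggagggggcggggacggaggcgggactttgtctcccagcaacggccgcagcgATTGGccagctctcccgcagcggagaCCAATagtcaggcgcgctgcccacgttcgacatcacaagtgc
Rrm2: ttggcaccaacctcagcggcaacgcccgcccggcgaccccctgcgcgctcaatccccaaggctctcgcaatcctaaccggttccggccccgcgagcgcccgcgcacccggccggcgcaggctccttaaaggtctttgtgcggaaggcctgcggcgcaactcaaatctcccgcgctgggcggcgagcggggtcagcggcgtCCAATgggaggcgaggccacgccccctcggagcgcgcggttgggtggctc
The box begins 99 and 67 bases before the start in Ccnb1, 68 and 42 in Bub1 and 50 in Rrm2. On either strand it was in 20 of 25 windows of cell cycle genes (80%), against 11120 of 32851 windows of all genes (33.8%). Windows were present for 24 of the 28 members, and 19 of these had it. This motif, too, was chosen with the values known.

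Inhibitors of the cell cycle did not rise as a set: 11 of 14 inhibitors and p53 targets fell and 2 rose (median log2 change -2.19). Cdkn1b (p27), the inhibitor of many resting tissues, had 121 and 92.4 CPM in P-RPE, against 26.3, 27.1 and 27.0 CPM in MEF, a log2 change of 1.99 (SE 0.17). Cdkn2d (p19) had 33.9 and 39.0 CPM in P-RPE, against 20.6, 24.6 and 20.8 CPM in MEF. Both rose. Cdkn2a, which encodes p16 and ARF and accumulates in cultured fibroblasts, had 0.168 and 0.161 CPM in P-RPE, against 49.4, 49.9 and 50.4 CPM in MEF, a log2 change of -8.22 (SE 0.37). Cdkn1a (p21), a p53 target, had 69.4 and 84.0 CPM in P-RPE, against 612, 672 and 623 CPM in MEF, a log2 change of -3.05 (SE 0.23). Both fell.

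Embryonic and imprinted growth genes fell in 14 of 15 tested members, with a median log2 change of -5.06, or -4.82 with bounds. H19, the imprinted non-coding RNA, had 3.69 and 4.48 CPM in P-RPE, against 3354, 3191 and 3042 CPM in MEF, a log2 change of -9.61 (SE 0.84). Its neighbour Igf2 had 13.6 and 13.4 CPM in P-RPE, against 459.7, 472 and 419.5 CPM in MEF, a log2 change of -5.06 (SE 0.59). Igf2bp2, an RNA-binding protein of embryonic cells, had 1.73 and 1.72 CPM in P-RPE, against 197, 213 and 200.3 CPM in MEF, a log2 change of -6.88 (SE 0.15). The P-RPE levels of all 3 were a small fraction of every MEF value. Mest, also imprinted, was the 1 that rose, with 134 and 113 CPM in P-RPE, against 87.9, 82.8 and 81.8 CPM in MEF, and this call was lost when any 1 of the 5 libraries was left out (edgeR adjusted p 0.0547 to 0.223).

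Fibroblast identity genes, taken as a check of the MEF label, were mixed. Thy1, a surface marker of fibroblasts, had 9.35 and 12.8 CPM in P-RPE, against 323, 340.2 and 326 CPM in MEF, and Vim, the mesenchymal filament vimentin, had 496 and 709.9 CPM in P-RPE, against 5859, 6209.5 and 5944 CPM in MEF. Both fell. Of the 12 genes, 5 fell, 3 rose and 4 did not pass, where 31.4% of all genes tested fell and 39.3% rose. In a model of these 5 libraries alone 9 fell. Pdgfra and Pdgfrb, receptors of fibroblasts and pericytes, did not pass, at 105 and 115 CPM in P-RPE, against 173, 162 and 162 CPM in MEF for Pdgfra. Fap, a protease of activated fibroblasts, was higher in P-RPE, with 301 and 212 CPM in P-RPE, against 4.35, 5.75 and 4.28 CPM in MEF, a log2 change of 5.74 (SE 0.50), as were Pi16 and Cd34. For the P-RPE label, the chosen lineage genes Rpe65, Rlbp1, Rgr, Best1, Tyr and Mitf were all higher there, as given above. Of other genes tied to RPE above, Serpinf1 and Tfec did not pass and Efemp1 fell.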

How the data were processed

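Total RNA was sequenced as paired 150-base reads from a NEBNext Ultra library, per the labels. The deposited table holds the authors' raw read counts per gene symbol, made with STAR 2.7.11a and featureCounts on builds mm10 or GRCm38 according to the submitters' processing notes. The strand setting is not given in the sources used here. The 14 mouse libraries entered 1 model of 5 groups in R 4.3.3 with edgeR 4.0.16: a filter on low counts by group, TMM scaling, a robust quasi-likelihood fit and the contrast P-RPE minus MEF, with Benjamini-Hochberg adjusted p below 0.05 called. The procedure was also run on simulated data in which most genes did not differ between P-RPE and MEF and both had the same spread. The real groups differ from this in both respects, so that run does not measure performance here. A group without counts was given a floor of 3 counts summed over it. Ratios against 1 to 3 counts carry exact 95% intervals, and intervals and floors cover counting error only.

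Groups, members and gene lists were chosen with earlier results of these data known. The rule for named genes took the 15 largest changes each way with 10 CPM or more and no overlap, a set of lineage genes, from every list the 4 members that changed most in either direction and the abundant one not passing, and the 5 genes with most counts per group. Of 234 genes named, not counting Ermn, 72 lie outside it and were chosen after their values were seen. Exon overlap was read from GENCODE vM21. Alternatives were RLE or no scaling, no filter or a mean of 5 CPM, a replicate block, DESeq2 1.42.0, limma-voom 3.58.1, a model of the 5 libraries, non-robust dispersions and leaving out each library. The human table was not used here, and some genes are not reported here.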

Additional observations from a re-analysis of the deposited data

How the results depend on the processing

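The counts of 8079 genes higher and 6449 lower stayed within 1.5 times under every alternative. They were 8106 and 6423 with RLE size factors, 7927 and 6554 with library totals alone, 8088 and 6512 with DESeq2, 7976 and 6468 with limma-voom, and 8081 and 6458 with dispersions that were not robust. Without the count filter they were 7692 and 6863, and the median log2 change of genes tested in both fits shifted by -0.136; with a mean of at least 5 CPM they were 5386 and 4837 of 12529 tested. A model of the 5 libraries alone gave 7788 and 7026 of 18218 tested. Leaving out 1 library gave 7272 to 7632 higher and 5701 to 6117 lower. The replicate block gave 7892 higher and 6349 lower; same-numbered libraries did not deviate together (correlations 0.0281 and 0.011), so the numbers do not pair them. Under the block the calls of Mest and Optc were lost.

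Of 225 named genes tried, 202 kept direction and call in every alternative that tested them. Direction turned for Tfec without the filter (log2 change -0.0239), for Zeb2 at 5 CPM or more (0.00942), and for 5 genes when 1 library was left out, over which the log2 change ran between -0.26 and 0.41 for Tfec, -0.60 and 0.68 for Epcam, -0.80 and 0.14 for Aldh1a1, -0.0241 and 0.47 for Itgav, and -1.83 and 4.54 for Optc. Of these, Optc passed in both directions, Aldh1a1 passed without P-RPE 2 alone, and the others did not pass. Calls of Mobp and Optc were lost with limma-voom and in the model of the 5 libraries alone. The log2 change of Optc was 1.40 with limma-voom. Calls of Ddx3y and Eif2s3y were also lost with limma-voom. The cause was not tested. With P-RPE at 2 libraries, its spread is known poorly, and 1 count was worth 0.0268 to 0.0305 CPM, which limits statements on genes near 0.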

Other observations

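Genes of several lineages lay outside the epithelium and fibroblast lists. For every list in this paragraph, the shares over all genes tested were 39.3% higher and 31.4% lower. Cartilage and bone genes were mixed, with 4 of 13 tested members higher and 6 lower (median log2 change -0.44). Col2a1, the collagen of cartilage and vitreous, had 0.448 and 14.7 CPM in P-RPE, against 903, 939 and 916 CPM in MEF, a log2 change of -6.92 (SE 1.12), or -10.99 without P-RPE 2 and -5.96 without P-RPE 1. Alpl, tissue-nonspecific alkaline phosphatase, rose, with 165 and 163 CPM in P-RPE, against 0.426, 0.387 and 0.454 CPM in MEF, a log2 change of 8.59 (SE 0.48). Col11a2, Sp7 and Sox5 also rose, with log2 changes of 2.76, 2.63 and 1.76. Skeletal muscle genes fell in 10 of 12 tested members and rose in 2, or in 1 without MEF 1, MEF 3 or P-RPE 1. Acta1, skeletal actin, had 3.92 and 1.07 CPM in P-RPE, against 118, 125 and 122 CPM in MEF, a log2 change of -5.61 (SE 0.53), or -6.82 without P-RPE 1 and -4.96 without P-RPE 2. Periocular mesenchyme genes were higher in 5 of 9 members (2 without P-RPE 2) and lower in 2. Foxc2, which fell, had 3.25 and 4.50 CPM in P-RPE, against 53.4, 62.2 and 52.1 CPM in MEF. Genes of cornea and conjunctiva were higher in 2 of 7 tested members and lower in 4, with 1 higher when any 1 of MEF 1, MEF 3 and both P-RPE libraries was left out. Choroid plexus genes, many of which RPE shares, were higher in 10 of 11 tested members. Clic6, an intracellular channel protein, had 1496 and 1373 CPM in P-RPE, against 0.305, 0.111 and 0.170 CPM in MEF. Stress chaperones were split, with the inducible Hspa1a at 60.3 and 79.9 CPM in P-RPE, against 4.93, 5.42 and 4.68 CPM in MEF and the mitochondrial Hspd1 at 109 and 92.7 CPM in P-RPE, against 538, 523 and 525 CPM in MEF.

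The sex-linked genes, a list added after the values were seen, differed between the groups. Ddx3y, on the Y chromosome, had 0 counts in either P-RPE library, against 23.9, 21.6 and 22.8 CPM in MEF, at least 555-fold lower, with an adjusted p of 1.92e-05 by edgeR and 0.0539 by limma-voom. Eif2s3y, Kdm5d and Uty also had 0 counts in P-RPE. Xist, made from the inactive X, had 904 and 632 CPM in P-RPE, against 209, 201 and 209.6 CPM in MEF. MEF thus held both Xist and Y-linked transcripts. P-RPE held Xist and no count of these Y-linked genes. The labels give no sex, so sex and cell type cannot be told apart for these genes or in any other difference between the groups.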
